A study of Rattus norvegicus with 13 samples.

Results

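The genes of the GABA-A receptor subunits were examined in the frontal cortex of rats killed 1 month after a head trauma or its sham. The set comprised 7 genes, each with 1 probe whose gene name in the scanner files was Gabra2, Gabra3, Gabra4, Gabra5, Gabrd, Gabrb1 or Gabrb2, of 17244 genes tested and 30367 probes on the array. They were taken by gene name, not by a threshold on a measured value, but the set was chosen with earlier results of these data known. It does not hold every GABA-A subunit measured. The study took total RNA from male Sprague-Dawley rats, hybridised each sample to its own Agilent 1-colour array, and had 4 groups: rotational trauma (3 arrays), in which the head is rapidly accelerated about an axis, rotational sham (3 arrays), lateral fluid percussion trauma (3 arrays), in which a pressure pulse is delivered to the dura, and percussion sham (4 arrays). Sham rats had anaesthesia and all of the surgery but no trauma. Nothing in the labels says more about the animals, so p-values measure the spread between these samples.

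GABA-A receptors are chloride channels opened by GABA, the main inhibitory transmitter of the cortex. Each is a ring of subunits, usually α and β subunits with a γ or a δ subunit. Receptors with α2 or α3 and a γ subunit are mostly placed at synapses, where they carry brief phasic inhibition. Receptors with δ, often together with α4, and many receptors with α5 lie outside synapses, where they respond to ambient GABA and carry tonic inhibition. The β subunits are part of both kinds and form the GABA binding site together with α.

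The quantity throughout is a scaled log2 signal, the log2 of the processed spot signal less the array's 75th percentile. Levels of different probes cannot be set against each other, so each gene was compared only with itself. A gene passed if limma's two-sided test gave an adjusted p below 0.05 over all 17244 genes tested (Benjamini-Hochberg). All 7 probes were well above background on all 13 arrays, so all members entered the test, and none was saturated. Their sequences are shown because each value below is the signal of 1 oligonucleotide, and subunits of the family resemble each other. Capitals mark the longest run of bases that a probe shares with a probe of any other GABA-A subunit on the array. Of the Gabrd and Gabrb1 probes, which may lie beyond the coding part, only the first 30 bases are given, with no capitals.
Gabra2: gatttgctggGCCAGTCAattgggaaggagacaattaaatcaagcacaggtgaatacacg
Gabra3: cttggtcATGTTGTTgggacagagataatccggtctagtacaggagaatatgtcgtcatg
Gabra4: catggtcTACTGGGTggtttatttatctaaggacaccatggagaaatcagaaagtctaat
Gabra5: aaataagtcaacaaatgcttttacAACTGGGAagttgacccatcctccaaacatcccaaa
Gabrb2: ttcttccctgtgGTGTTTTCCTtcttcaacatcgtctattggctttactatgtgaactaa
Gabrd: attagttggcctgtccctgaagctgagcct
Gabrb1: caaggtaccagctctgtaagagttccatca

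The longest shared run was 10 bases of 60, between the Gabrb2 and Gabrr2 probes, and 7 to 9 bases for the other members. It sets probes against probes by exact runs only, so binding of a probe to the transcripts of other subunits was not tested. Positions on the rat genome build rn4 were taken from the scanner files. The Gabra2 probe (chr14:39661796-39662852, plus strand) and the Gabra3 probe (chrX:158416663-158422492, minus strand) span 1057 and 5830 bases of genome for 60 bases of probe, so each crosses an intron. The Gabra4 probe lies at chr14:39122375-39122434 (plus strand) and the Gabrb1 probe at chr14:38530433-38530492 (minus strand). The Gabra5 probe lies at chr1:108844189-108844248 (minus strand), the Gabrb2 probe at chr10:27819086-27819145 (plus strand) and the Gabrd probe at chr5:172203200-172203260 (minus strand). Exon and UTR annotation on rn4 was not used here.

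Across the 13 arrays, 67.0% to 74.1% of spots were well above background. The share was 67.0% to 72.5% in rotational trauma and 73.1% to 74.1% in rotational sham, and 72.7% to 73.8% in percussion trauma and 67.6% to 69.4% in percussion sham. Within a slide, trauma and sham occupied separate columns, so column and trauma cannot be told apart within a model. Rotational trauma was in column 2 and its sham in column 1, while percussion trauma was in column 1 and its sham in column 2. The difference between both models thus cannot be told apart from a column effect either. Each model had a slide and a scan of its own, so every trauma difference was taken within a slide. The neuronal genes Rbfox3 and Snap25, the cortical glutamatergic genes Slc17a7 and Tbr1, and Gad1 of GABA neurons were above background on all 13 arrays.

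In rotational trauma the values of all 7 subunits were lower than in sham, by small amounts, and 0 of 7 passed. The log2 differences lay between −0.35 (Gabra5) and −0.06 (Gabrd), with a median of −0.13, while the median over all genes tested was −0.03 and 60.2% of all genes had a difference below 0. Over all genes 0.0116% passed in this comparison. At an unadjusted p below 0.05 there was 1 member, Gabra5, against 6.86% of all genes. In percussion trauma 0 of 7 passed, where the share over all genes was 0%, and 3 members had values below and 4 above their sham, with a median of 0.02 against 0.01 over all genes, of which 47.3% lay below 0. No member reached an unadjusted p below 0.05 in percussion, against 11.3% of all genes. In bulk tissue, fewer cells of a type and less RNA per cell cannot be told apart.

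**Figure D1:**
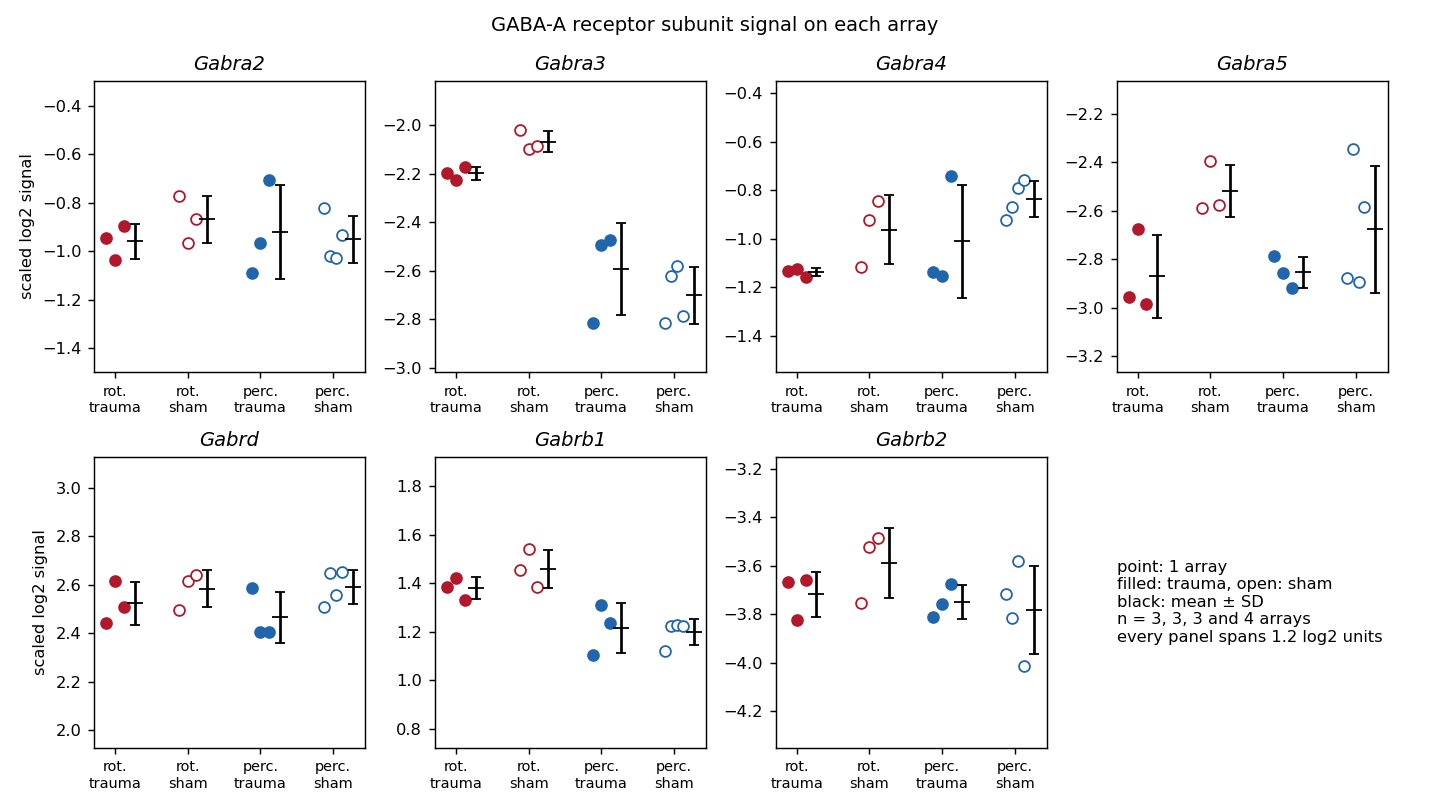
Scaled log2 signal (vertical axis) of the 7 subunits on each of the 13 arrays, with filled points for trauma, open points for sham, and the group mean ± SD in black. Gabra5 in rotational trauma lies below all 3 rotational sham arrays, and the percussion groups overlap in every panel.

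Gabra5 encodes α5, the subunit of receptors that carry tonic inhibition in pyramidal neurons. Its level was −2.96, −2.67 and −2.98 in rotational trauma 1 to 3, against −2.59, −2.40 and −2.58 in rotational sham 1 to 3. All trauma values were below all sham values. The mean was −2.87 ± 0.17 (SD, n = 3) in trauma and −2.52 ± 0.11 (SD, n = 3) in sham, a log2 difference of −0.35 (SE 0.14), or 1.28-fold lower, with a 95% interval from −0.66 to −0.04. The difference did not pass (limma, adjusted p = 0.654), although its absolute size was at the 89.5th percentile of all genes. In percussion the level was −2.79, −2.86 and −2.92 in trauma and −2.88, −2.35, −2.89 and −2.59 in sham, so 2 of 4 sham arrays were as low as the trauma arrays. The difference there was −0.18 (SE 0.13, limma adjusted p = 0.633), with an interval from −0.47 to 0.11, and it was −0.07 without percussion sham 2, the highest sham array. Of the 7 probes this one had the largest disagreement between its 2 spots on an array (SD of a single spot 0.20 on the log2 scale, against 0.02 to 0.09 for the others). Taken separately, the spots gave −0.36 and −0.35 in the rotational model and −0.27 and −0.08 in percussion.

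Gabra4 encodes α4, which joins δ in extrasynaptic receptors of the forebrain and lacks the classical benzodiazepine site. It had −1.13, −1.12 and −1.16 in rotational trauma, against −1.12, −0.92 and −0.85 in rotational sham. The groups were apart by a small margin, with a highest trauma value of −1.125 and a lowest sham value of −1.119. The difference was −0.18 (SE 0.11, limma adjusted p = 0.853). In percussion Gabra4 had −1.14, −1.15 and −0.74 in trauma and −0.92, −0.87, −0.79 and −0.76 in sham. Trauma arrays 1 and 2 were below every sham array and trauma 3 was above every sham array. The percussion difference was −0.17 (SE 0.10, limma adjusted p = 0.546), and −0.31 without percussion trauma 3.

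Gabrd encodes δ, the subunit most strictly confined to extrasynaptic receptors. Its level was 2.44, 2.62 and 2.51 in rotational trauma, against 2.50, 2.61 and 2.64 in rotational sham, and the groups overlapped. In percussion it was 2.59, 2.41 and 2.40 in trauma, against 2.51, 2.65, 2.56 and 2.65 in sham, with trauma 2 and 3 below every sham array and trauma 1 within them. The differences were −0.06 (SE 0.08, 95% interval −0.23 to 0.11, limma adjusted p = 0.971) in the rotational model and −0.13 (SE 0.07, interval −0.29 to 0.03, limma adjusted p = 0.534) in percussion. Its spread was among the narrow ones, with a residual SD of 0.08 at the 14th percentile of all genes, so decreases larger than 0.23 and 0.29 on the log2 scale lie outside these intervals.

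Among the synaptic α subunits, Gabra3 encodes α3, found in deep cortical layers and in monoaminergic neurons. It had −2.20, −2.23 and −2.17 in rotational trauma and −2.02, −2.10 and −2.08 in rotational sham. All trauma values were below all sham values, with a difference of −0.13 (SE 0.10) that did not pass (limma, adjusted p = 0.9). In percussion it had −2.81, −2.49 and −2.47 in trauma and −2.82, −2.62, −2.58 and −2.78 in sham, with 2 trauma arrays above all sham arrays and 1 at their lower end, and a difference of 0.11 (SE 0.09, limma adjusted p = 0.683). The test of the difference between both models gave −0.24 (SE 0.13, unadjusted p = 0.0992, limma adjusted p = 0.659), the largest in size of the 7 members.

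Gabra2 encodes α2, a subunit of synapses on the axon initial segment and of upper cortical layers. It had −0.945, −1.04 and −0.89 in rotational trauma, against −0.77, −0.96 and −0.87 in rotational sham, and −1.09, −0.97 and −0.71 in percussion trauma, against −0.82, −1.02, −1.03 and −0.93 in percussion sham. Both pairs of groups overlapped, and the differences were −0.09 (SE 0.10, limma adjusted p = 0.962) and 0.03 (SE 0.09, limma adjusted p = 0.933). The percussion value had the opposite sign with other scalings, between −0.044 and −5e-04.

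The β subunits showed no separation of trauma from sham. Gabrb1, which encodes β1, had 1.38, 1.42 and 1.33 in rotational trauma, against 1.46, 1.54 and 1.38 in rotational sham, and 1.103, 1.31 and 1.24 in percussion trauma, against 1.12, 1.22, 1.23 and 1.22 in percussion sham. Its differences were −0.08 (SE 0.07, 95% interval −0.24 to 0.08) and 0.02 (SE 0.07, interval −0.13 to 0.16), the narrowest intervals of the set. Gabrb2, which encodes the β2 subunit of the most common cortical receptor, had −3.67, −3.83 and −3.66 in rotational trauma, against −3.75, −3.52 and −3.49 in rotational sham. In percussion it had −3.81, −3.76 and −3.68 in trauma, against −3.72, −3.82, −3.58 and −4.01 in sham. Both pairs overlapped, with differences of −0.13 (SE 0.11, limma adjusted p = 0.924) and 0.03 (SE 0.10, limma adjusted p = 0.929). Its probe was the dimmest, at 173 to 241 units of processed signal, and its spots disagreed in sign in percussion (0.09 and −0.03).

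**Figure D2:**
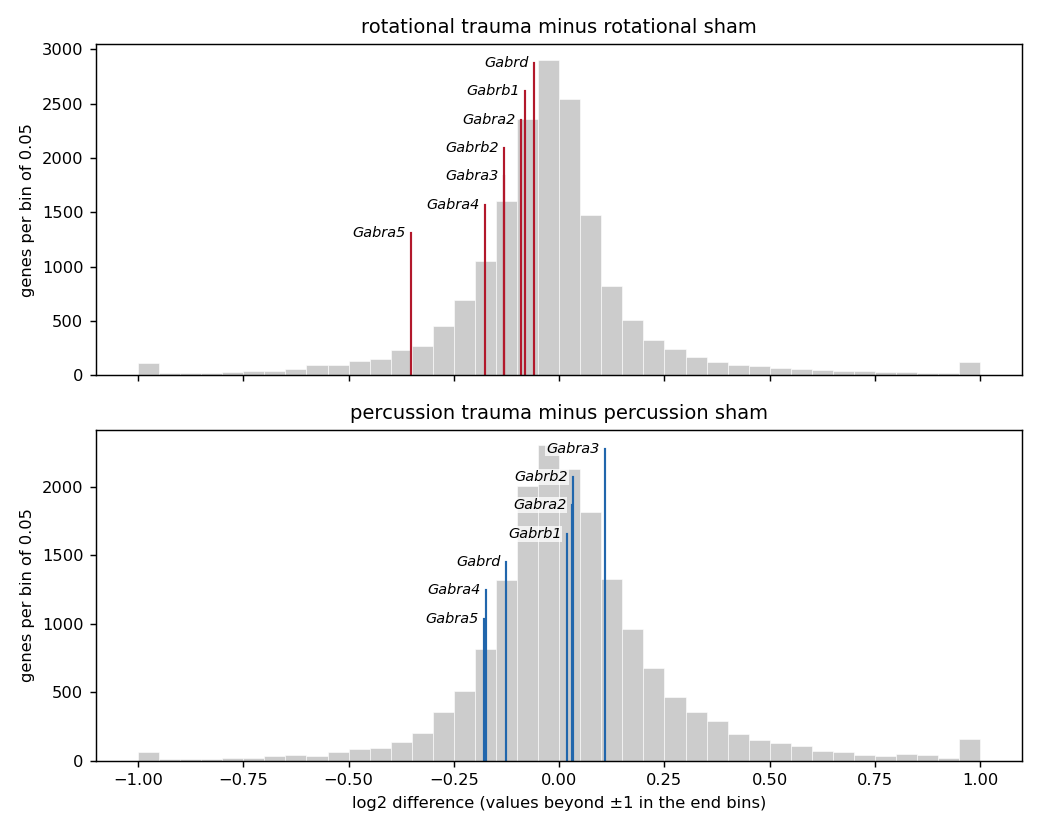
Number of genes (vertical axis) by log2 difference, trauma minus own sham (horizontal axis, bins of 0.05), for all 17244 genes in grey, with a coloured line for each of the 7 subunits. All 7 lines lie left of 0 in the rotational model, from −0.35 to −0.06, and they lie on both sides of 0 in percussion, from −0.18 to 0.11.

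Counted by non-overlap, every rotational trauma array was below every rotational sham array for 3 of the 7 subunits, Gabra3, Gabra4 and Gabra5, where 10.6% of all genes showed this and 4.86% were above in the same way. In percussion this held for 0 of 7, against 3.83% of all genes below and 5.9% above. The median absolute difference over all genes was 0.09 in the rotational model and 0.11 in percussion. In the rotational model 5 members exceeded it, Gabra2 barely at the 50.3rd percentile, Gabrb2 and Gabra3 at the 63.2nd and 63.4th, Gabra4 at the 73.1st and Gabra5 at the 89.5th. In percussion 4 did, Gabra3 barely at the 50.6th percentile, Gabrd at the 56.9th, Gabra4 at the 69th and Gabra5 at the 69.7th. For the mean of both models 0 of 7 passed, against 0% of all genes, and all 7 values were below 0, where 54.7% of all genes were. At an unadjusted p below 0.05 there were 2 members, against 8.92% of all genes. Gabra5 at −0.265 (SE 0.10, unadjusted p = 0.0189, limma adjusted p = 0.426) and Gabra4 at −0.18 (SE 0.08, unadjusted p = 0.0404, limma adjusted p = 0.536) were these. The difference between both models passed for 0 of 7, against 0% of all genes, and 0 of 7 reached an unadjusted p below 0.05, against 8.56%. Its sign was negative for 6 of 7, against 57.6% of all genes. Trauma and sham had opposite columns on the slides of the models, so this difference cannot be told apart from a column effect.

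Set by role, the extrasynaptic subunits (Gabra4, Gabra5 and Gabrd) averaged a deviation from their own sham mean of −0.25, −0.09 and −0.24 in rotational trauma 1 to 3, against −0.10, 0.06 and 0.04 in rotational sham 1 to 3. Trauma 2 lay within the sham range. In percussion they averaged −0.14, −0.23 and −0.11 in trauma, against −0.12, 0.12, −0.07 and 0.08 in sham, so 2 of 3 trauma arrays were below all sham arrays and the other lay within their range. All 3 extrasynaptic subunits had values below sham in both models, where 60.2% of all genes did in the rotational model and 47.3% in percussion.

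The synaptic α subunits (Gabra2 and Gabra3) averaged −0.10, −0.16 and −0.06 in rotational trauma, against 0.07, −0.06 and −0.01 in rotational sham. The groups all but touched, at −0.0647 for the highest trauma array and −0.0638 for the lowest sham array. In percussion the trauma arrays ran from −0.12 to 0.24, with 0.10 between, against −0.03 to 0.02 in sham. The synaptic subunits were thus below sham in 2 of 2 cases in the rotational model and in 0 of 2 in percussion, against 60.2% and 47.3% of all genes. The β pair averaged −0.11 ± 0.03 (SD, n = 3) in rotational trauma and 0.03 ± 0.08 (SD, n = 3) in percussion trauma, against 0 by construction in each sham group.

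The extrasynaptic difference less the synaptic difference was −0.085 in the rotational model and −0.23 in percussion. Per array it was −0.145, 0.07 and −0.18 in rotational trauma, against −0.18, 0.13 and 0.05 in rotational sham, and the groups overlapped. In percussion it was −0.015, −0.32 and −0.35 in trauma, against −0.13, 0.11, −0.09 and 0.11 in sham. Percussion trauma 2 and 3 lay below all sham arrays and trauma 1 lay within them. These averages over chosen genes are descriptions and were given no p.

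**Figure D3:**
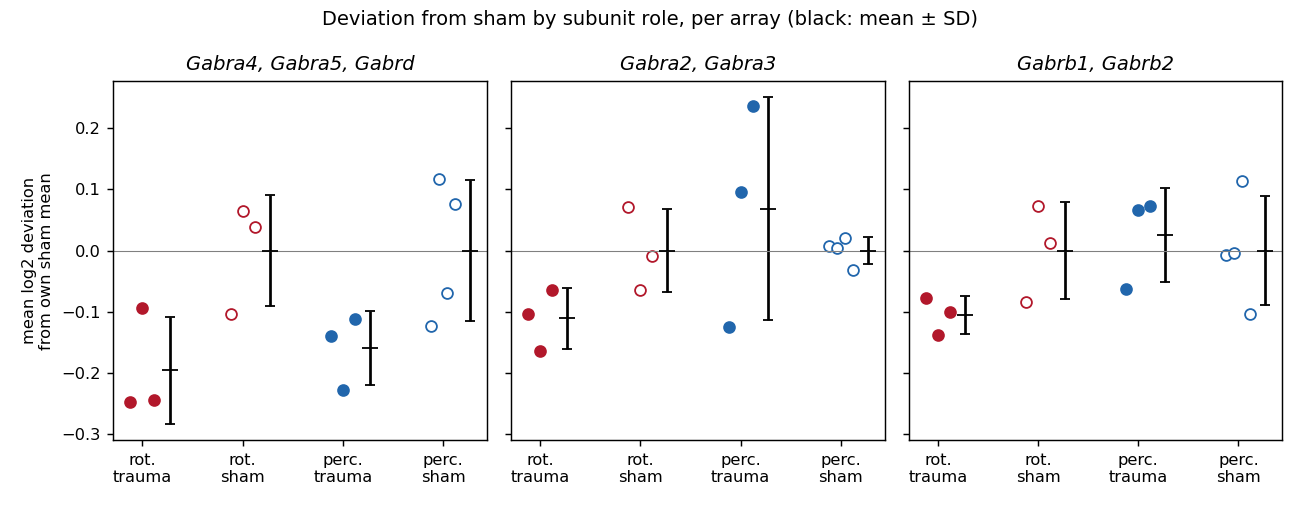
Mean log2 deviation from the own sham mean (vertical axis) per array for extrasynaptic, synaptic and β subunits, with filled points for trauma, open points for sham and the mean ± SD in black. Extrasynaptic subunits lie below 0, the sham mean, on all 6 trauma arrays. Rotational sham 1 (−0.10) and percussion sham 1 and 3 (−0.12 and −0.07) also lie below it, so trauma and sham overlap. Synaptic subunits in percussion trauma spread from −0.12 to 0.24.

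Marker lists of other regions and cells also differed in these comparisons. No gene of the lists given here passed (limma), and their part in the subunit values was not tested. Of all genes, 60.2% had a difference below 0 in the rotational model and 47.3% in percussion. Striatal markers, from a region where Gabra4 is abundant, were lower in rotational trauma for 10 of 10 measured genes (median −0.45), with list scores of −0.92 to −0.37 in trauma and −0.94 to 0.64 in sham. In percussion 8 of 10 were lower (median −0.08), with scores of −0.19 to 0.03 in trauma and −0.03 to 0.06 in sham. Thalamic markers, from a region rich in α4 and δ, were higher for 7 of 7 genes in both models, with scores of 0.09 to 0.45 in rotational trauma and −0.18 to 0.14 in rotational sham, and 0.08 to 0.42 in percussion trauma and −0.24 to 0.28 in percussion sham. General neuron markers were higher for 6 of 10 genes in the rotational model (median 0.01) and lower for 7 of 10 in percussion (median −0.03). Their list had scores of −0.050 to −0.005 in rotational trauma and −0.004 to 0.006 in rotational sham, and −0.19 to −0.04 in percussion trauma and −0.07 to 0.06 in percussion sham. Upper-layer markers were lower for 5 of 6 genes in the rotational model (median −0.07) and 4 of 6 in percussion (median −0.05), and deep-layer markers for 5 of 7 (median −0.04) and 2 of 7 (median 0.10). The meningeal list was higher for 9 of 9 genes in both models, with medians of 1.06 and 1.34. Its scores were 0.59 to 1.70 in rotational trauma and −0.41 to 0.49 in rotational sham, and 0.77 to 2.08 in percussion trauma and −0.59 to 0.38 in percussion sham. Oligodendrocyte markers were higher for 7 of 8 genes in the rotational model, with scores of 0.20 to 0.57 in trauma and −0.46 to 0.24 in sham, and for 3 of 8 in percussion. Interneuron markers, from cells that make GABA, were lower for 7 of 9 genes in both models, each with a median of −0.09. Their scores of −0.08 to −0.02 in rotational trauma lay within those of rotational sham, −0.10 to 0.10. In percussion the scores overlapped, at −0.145 to 0.01 in trauma and −0.05 to 0.03 in sham. The choroid plexus list, of which 3 of 6 genes were measured, was higher for 3 of 3 in both models, with medians of 1.17 in the rotational model and 1.28 in percussion. Its scores overlapped in both models. They were 0.48 to 1.74 in rotational trauma and −1.54 to 1.25 in rotational sham. In percussion they were 0.62 to 2.10 in trauma and −0.78 to 0.67 in sham. Endothelial markers were higher for 4 of 7 genes in the rotational model (median 0.03) and 7 of 7 in percussion (median 0.20).

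The levels of the members in all 4 groups were ordered by group mean. For Gabra2, Gabra4, Gabra5, Gabrd and Gabrb2 every group overlapped its neighbour in that order. Gabra3 averaged −2.20 in rotational trauma and −2.07 in rotational sham, and −2.59 in percussion trauma and −2.70 in percussion sham. Both rotational groups were apart from each other and above both percussion groups, which overlapped. Gabrb1 averaged 1.38 in rotational trauma and 1.46 in rotational sham, and 1.22 in percussion trauma and 1.198 in percussion sham. Trauma and sham of a model overlapped, and both rotational groups lay above both percussion groups. Set against rotational sham, percussion sham was lower by 0.63 for Gabra3 and by 0.26 for Gabrb1 on the log2 scale. The other 5 members differed between the sham groups by −0.19 to 0.13. Model and slide coincide, so these offsets cannot be told apart from a slide effect.

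The genes of the family lie in clusters, and the arrays carried probes for 12 further subunits. Of these, 6 were kept, Gabrg1, Gabrg3 and Gabrq among them, and 6 were above background on 0 arrays: Gabra6, typical of cerebellar granule cells, Gabre, Gabrp and the ρ subunit genes Gabrr1, Gabrr2 and Gabrr3, best known from retina. Gabrg3 was kept only through rotational sham and is left out of the counts that follow. In the rotational model 4 of the other 5 subunits were lower and 1 higher, where 60.2% of all genes were lower, with a median of −0.19. None of the 5 passed, against 0.0116% of all genes, and 2 had an unadjusted p below 0.05, against 6.86%. In percussion 2 were lower and 3 higher, where 47.3% of all genes were lower, with a median of 0.02. None passed, against 0% of all genes, and 0 had an unadjusted p below 0.05, against 11.3%.

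On chromosome 14, Gabrb1, Gabra4, Gabra2 and Gabrg1 follow each other within 1420.7 kb. The first 3 had values of −0.08, −0.18 and −0.09 in the rotational model, while Gabrg1, which encodes the γ1 subunit found partly in glia, had 0.34 (SE 0.17, limma adjusted p = 0.774). Gabrg1 stood at 0.34, −0.17 and −0.275 in rotational trauma, against −0.53, −0.29 and −0.30 in rotational sham. The trauma group was above the sham group, most so in trauma 1, and without that array the difference was 0.15. Gabrg3, a neighbour of Gabra5 on chromosome 1, was above background on 0 of 3 rotational trauma arrays and 3 of 3 rotational sham arrays, but so close to it that no fold can be given. Next to Gabra3 on chromosome X, Gabrq differed by −0.01. Gabrg3 and Gabrq were named after their values were seen.

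**Figure D4:**
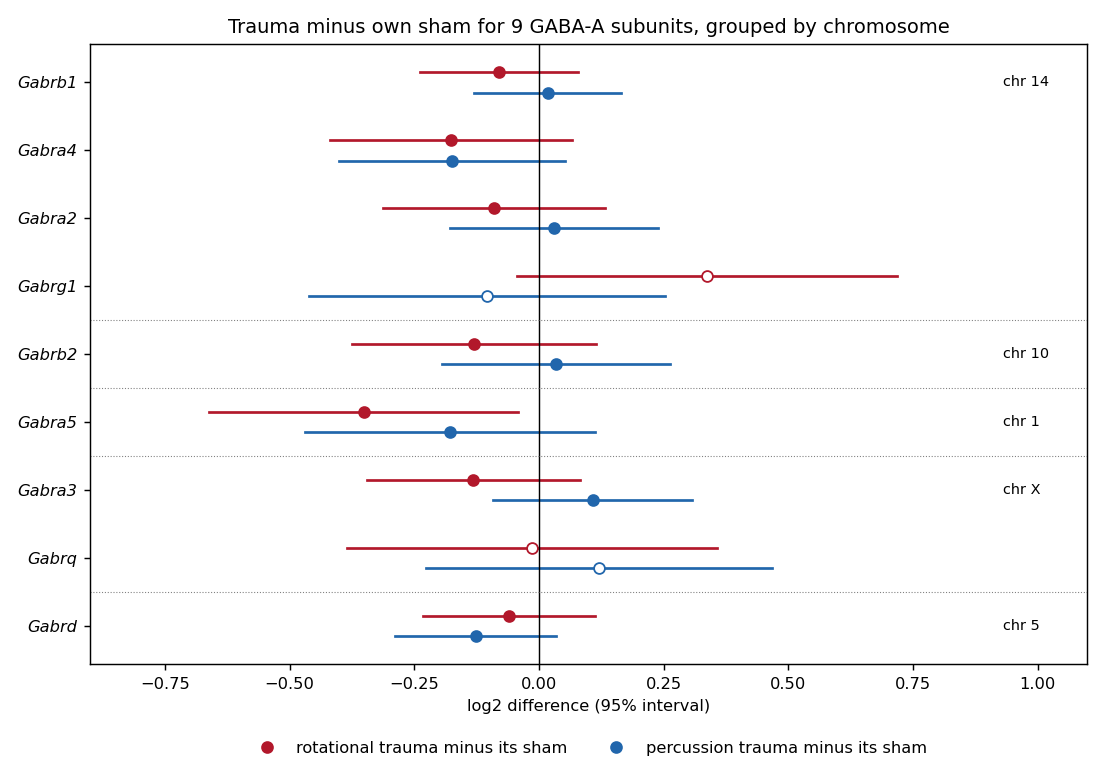
Log2 difference, trauma minus own sham (horizontal axis, with 95% interval), for 9 GABA-A subunits grouped by chromosome, in red for the rotational and blue for the percussion model, with filled points for the 7 subunits of the set. In the rotational model 8 of the 9 points lie below 0, where 60.2% of all genes do, and Gabrg1 at 0.34 lies above. Gabrq, at −0.01, was named after its value was seen, and not every measured subunit is drawn.

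Beyond the subunits, 60 genes of GABA signalling were listed, the 12 subunits included, and 50 were measured beside Gabrg3. Of these 0 passed in either model. In the rotational model 30 were lower and 20 higher, where 60.2% of all genes were lower. The median was −0.02 against −0.03 over all genes, and 8 had an unadjusted p below 0.05, against 6.86% of all genes. In percussion 23 were lower and 27 higher, where 47.3% of all genes were lower. The median was 0.01, and 4 had an unadjusted p below 0.05, against 11.3%. The 8 genes of GABA synthesis, transport and breakdown had medians of −0.07 in the rotational model and 0.08 in percussion. The 25 genes of receptor anchoring and traffic had medians of −0.03 and 0.01.

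The smallest p in the rotational model belonged to Kctd16, an auxiliary subunit of the GABA-B receptor, with −0.31, −0.25 and −0.36 in trauma, against −0.14, 0.05 and 0.12 in sham. Its groups did not overlap and differed by −0.32 (SE 0.10, limma adjusted p = 0.566). Slc12a2, which encodes the chloride importer NKCC1, had 0.14, 0.01 and 0.10 in rotational trauma, against −0.005, −0.39 and −0.08 in rotational sham, with a difference of 0.24 (SE 0.09, limma adjusted p = 0.606). Without rotational sham 2, the low sham array, it was 0.13. Rdx, which encodes radixin, the anchor of α5 receptors outside synapses, differed by 0.27 (SE 0.11, limma adjusted p = 0.683) with overlapping groups, and by 0.14 without rotational sham 2.

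In percussion, Shisa7, which encodes an auxiliary protein of GABA-A receptors, had 0.87, 0.79 and 0.88 in trauma, against 1.36, 1.01, 0.97 and 1.14 in sham. All trauma values were below all sham values, with a difference of −0.27 (SE 0.10, limma adjusted p = 0.365). Iqsec3, a partner of the synaptic scaffold protein gephyrin, differed by −0.14 (SE 0.06, limma adjusted p = 0.377), and the traffic gene Trak1 by −0.13 (SE 0.06, limma adjusted p = 0.425), both also without overlap. For Trak1 the sign was opposite when all its probes were averaged (0.22). Slc6a13, a GABA transporter gene of the meninges, differed by 1.26 (SE 0.55, limma adjusted p = 0.424), beside the higher values of the meningeal list, which contains it; its part in this value was not tested. Nsf differed by 0.23 and Plcl2 by 0.16, with overlapping groups and limma adjusted p = 0.513 and 0.519. Without percussion trauma 2, at 0.92 against 0.42 and 0.37 on the other trauma arrays, the Nsf difference was 0.06, and without percussion trauma 3 that of Plcl2 was 0.27.

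The members also varied together to different degrees. With the mean of each model taken off, the 21 pairs of members had Pearson correlations over the 13 arrays between −0.51 (Gabra2 and Gabrd) and 0.72 (Gabra5 and Gabrd), with a median of 0.21. Of these 15 were above 0. The 3 pairs among extrasynaptic subunits had 0.72, 0.38 and 0.37, and the synaptic pair had 0.40. Points of a pair share array and scaling, so these are descriptions. The mean was taken over trauma and sham together, so the difference between trauma and sham is part of these correlations. Among 12521 named genes, the profiles most like a member by the same measure were Ston2 (0.92) and Tk1 (0.91) for Gabra2, Cul2 (0.94) and Vamp4 (0.94) for Gabra3, and Ccnc (0.90) and Itfg1 (0.89) for Gabra4. They were Traf3ip1 (0.89) and Cplane2 (0.86) for Gabra5, Phf5a (0.91) and Scap (0.91) for Gabrd, Scml4 (0.87) and Zdhhc22 (0.86) for Gabrb1, and Cdk10 (0.83) and Mapk4 (0.80) for Gabrb2. Each pair of genes was the highest of 12521 correlations over 13 arrays. How high chance alone would reach in such a search was not tested.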

How the data were processed

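Spot intensity comes from Agilent Feature Extraction 10.5.1.1 per the file headers, which record background subtraction and spatial detrending and no scaling between arrays. The authors also deposited a normalised log2 table, whose method is not given in the sources used here. The members had 0 flagged spots.

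Of 62976 spots, 58717 were no controls. Flagged outlier spots were left out, spots of a probe were averaged as log2 intensity, and each array's 75th percentile was subtracted. Probes were kept when, in 1 group or more, each array showed all their spots well above background (20004 of 30367). Names were updated from the GRCr8 gene table (18006 by accession, 2654 by symbol, 567 by synonym, 9140 kept), and the probe of highest mean stood for a gene, which gave 17244 genes. The fit, with limma 3.58.1 in R 4.3.3, gave 1 mean to each of the 4 groups over 13 arrays (9 residual and 2.22 prior degrees of freedom). Contrasts were trauma minus own sham in each model, their mean and their difference. The fit was tested on simulated data of 17238 genes: for rotational trauma minus its sham it called 4% of decreases of 0.25, 48% of 0.5, 76% of 1 and 90% of 2 on the log2 scale. Each size was given to 50 genes in independent normal noise, and 6 unchanged genes were called. The Benjamini-Hochberg cutoff depends on how many genes change, so these shares may be too high for the data, where 2 genes passed. Percussion was not simulated. Arrays are limited in precision by their number.

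The members and gene lists were chosen with earlier results of these data known. Named are all members, from the other lists up to 3 genes per direction and model of smallest p, and per member the 2 genes of highest correlation; some genes that this rule takes are not reported here. Alternatives were the background correction, the scaling, the deposited table, no filter, probe averaging, each model alone, the replicate number or slide row as a block, array weights, and each array left out. Slide could not be added as a block because it equals the model.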

Additional observations from a re-analysis of the deposited data

Results flagged for a closer look

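Among the 4 percussion sham arrays, replicate 1 lay far from the others for Gabrb1, at 1.12 where the others lay between 1.22 and 1.23, and for Plcl2, at −0.73 where the others lay between −0.56 and −0.52. Chance marks about 1 in 20 such groups. Without this array the percussion difference of Gabrb1 was −0.01. For Nsf, a gene of vesicle and receptor recycling, all rotational trauma arrays lay below and all percussion trauma arrays above the mean of their own sham, and the effects differed by −0.36. Percussion trauma 2 carried most of the Nsf difference in percussion, which was 0.06 without it. The rotational side rested on rotational sham 1, at 1.08 where sham 2 and 3 were at 0.79 and 0.76. Rotational trauma 1 to 3 were at 0.66, 0.81 and 0.79. For Trak1 the order was the opposite, with a difference of the effects of 0.15. The difference between models did not pass for either gene.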

How the results depend on the processing

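No member passed in any comparison under any alternative: the smallest adjusted p of a member lay between 0.118 and 1 for the rotational model, 0.1 and 0.796 for percussion, 0.109 and 0.73 for the mean and 0.364 and 0.853 for the difference. All 7 members stayed below 0 in the rotational model in each of the 23 alternatives (7 to 7 with an array left out). Not all of these were checks, because in some the members' rotational differences could not change. These were the fits without a percussion array, each model alone, no filter, probe averaging and the replicate block. Counted against the median of all genes, which was itself below 0 in the main setting, 7 were below it there and 6 without rotational trauma 1. The count below 0 in percussion, 3, was 5 with quantile normalization of the processed signal, 6 with median scaling, 5 in the deposited table and 3 to 5 with an array left out (5 without percussion trauma 3). Median scaling moved all genes alike, and counted against the median of all genes the percussion members below it were 3 with it, as in the main setting. They were 5 under quantile normalization with or without normexp and in the deposited table, and 4 with the replicate block and with array weights. The extrasynaptic less synaptic effect lay between −0.17 and −0.02 in the rotational model and between −0.34 and −0.17 in percussion with an array left out. Several signs turned. Under normexp with quantile normalization, quantile normalization alone, median scaling and the deposited table, Gabra2 in percussion was −0.044, −0.0025, −0.0055 and −5e-04, and the Gabra4 difference between models was 0.0655, 0.0276, 0.043 and 0.0275. The Gabra4 difference was 0.0781 with the slide row as a block, which also gave Gabrq 0.109 in the rotational model. Gabrb2 in percussion was −0.0165 with quantile normalization, −0.0016 with median scaling, −0.0317 in the deposited table and −0.0436 with the replicate block. Gabrb1 in percussion was −0.0175 with median scaling, the Gabrd difference between models −0.0406 with normexp, and Trak1 in percussion 0.2159 with its probes averaged. With an array left out, Gabra2 in percussion ran from −0.077 to 0.1131, Gabrb1 from −0.0287 to 0.0739, Gabrb2 from −0.0436 to 0.1002, the Gabra4 difference between models from −0.0796 to 0.1327 and Gabrq in the rotational model from −0.04 to 0.0119. Array weights, whose fit did not reach its tolerance, let 2 of the other GABA genes pass in the rotational model, one of them Kctd16 (limma adjusted p = 0.0381), against 0 otherwise, while it let 312 of all genes pass there, against 2 in the main setting. The cause was not tested. With no filter on dim probes 356 genes passed in the rotational model and 2977 in percussion, against 2 and 0, and no member among them. Same-numbered trauma and sham arrays correlated in their deviations from the group means at 0.109, 0.265 and 0.02 (rotational) and 0.282, −0.023 and −0.006 (percussion), so the numbers were not taken as pairing, and the replicate block changed no call of a member. For Gabrg3, close to background, the signal allowed no fold.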
